A study of Homo sapiens with 8 samples.

Results

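Fibroblast growth factor (FGF) receptors and the feedback genes of the MAPK pathway were examined in Rh41 cells in which G9a was knocked down. The set held 10 genes of the 60234 in the deposited table: the receptors FGFR1, FGFR2 and FGFR3, the receptor adaptor FRS2, the Sprouty genes SPRY1, SPRY2 and SPRY4, the phosphatase DUSP6 and the transcription factors ETV4 and ETV5. Each was taken by its symbol, and each symbol had 1 identifier. Rh41 is an established human cell line from an alveolar rhabdomyosarcoma, which is a tumour of soft tissue that expresses skeletal muscle genes, and it carries the PAX3-FOXO1 fusion. The design has 4 control libraries (CTR) and 4 libraries with knockdown of G9a (siG9a), described as biological replicates, all from this 1 line. G9a is a histone methyltransferase encoded by EHMT2. The series title calls the knockdown shG9a and the samples siG9a. The knockdown reagent, its control and the time after treatment are not given in the sources used here. The libraries were QuantSeq, which reads the 3′ ends of polyadenylated transcripts, so 1 transcript gives about 1 tag whatever its length. Values are CPM, the reads of a gene scaled to the total its library assigned to genes.

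FGF ligands bind their receptors together with heparan sulfate proteoglycans, and the activated receptor tyrosine kinases phosphorylate FRS2, which recruits GRB2 and SOS to turn on RAS. RAS drives the kinase chain RAF, MEK and ERK, and ERK induces transcripts that include the Sprouty genes, DUSP6, ETV4 and ETV5. Sprouty proteins dampen signalling from the receptor to RAS, DUSP6 dephosphorylates ERK, and these transcripts are widely read as an output of the pathway. Here only transcripts were measured, not receptor or ERK phosphorylation.

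The libraries held 1458825 to 1938665 reads, so 1 read was worth 0.516 to 0.685 CPM and the detection floor of 3 reads lay between 1.55 and 2.06 CPM. EHMT2 measured 57.6, 68.1, 87.3 and 88.3 CPM in control libraries 1 to 4 and 19.6, 35.1, 33.1 and 58.5 CPM in siG9a libraries 1 to 4. The groups overlapped at 1 value, and EHMT2 was lower in 4 of 4 pairs with the same replicate number. The limma fit gave an adjusted p of 0.191, or 0.000472 once the number entered the model as a block. Both replicate 3 libraries stood apart. Of 8 markers of rhabdomyosarcoma and skeletal muscle, whose defining members MYOD1 and DES were present in every library, the summed level was 295 and 243 CPM in the control and siG9a replicate 3 libraries, against 925 to 1882 CPM in the others. MYF6 was at or under the floor everywhere. Of 6 neural markers, the summed level, nearly all NEFM, was 8113 and 7664 CPM in the replicate 3 libraries against 169 to 2512 CPM in the others, with NEFH at or under the floor. The replicate 1 libraries also differed here, at 169 CPM in control and 185 CPM in siG9a, against 1584 to 2512 CPM in numbers 2 and 4. The stromal markers DCN, LUM and THY1, the epithelial EPCAM, the endothelial CDH5 and the blood markers PTPRC and SPI1 were at or under the floor in every library. Other members of these lists were detected, among them COL3A1 (38.8 to 341 CPM), COL1A1 (12.0 to 55.3), KRT18 (0.69 to 46.1) and CD74 (0.52 to 13.8). The summed stromal level was 118 to 399 CPM in control and 52.5 to 318 CPM in siG9a. The epithelial sum was 10.3 to 75.6 CPM and 23.5 to 44.0 CPM. In bulk samples, fewer cells of a type and less RNA per cell cannot be told apart.

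In siG9a, SPRY1 and FRS2 were lower and ETV4 was higher in 4 of 4 pairs, and the other 7 genes did not keep 1 direction. Without the replicate number in the model, limma called 0 of the 10 genes at an adjusted p under 0.05, as it called 0 of the 15092 genes tested (0.0%). At an unadjusted p under 0.05 there were 3 of the 10 (SPRY1, ETV4 and FGFR1), where 12.5% of all genes passed. Without the number, edgeR also called 0 of the 10 and 0.0% of all genes, while DESeq2 called 1 (SPRY1), with 1.93% of all genes. With the number as a block, limma called 2 of the 10, SPRY1 lower and ETV4 higher, beside 11.4% of all genes (4.86% higher and 6.52% lower). For a set of 10 genes, 2 calls are close to that background. At an unadjusted p under 0.05 with the block there were 4 of the 10, where 25.5% of all genes passed. With the block, edgeR called 3 of the 10 (SPRY1, ETV4 and FRS2; 11.3% of all genes) and DESeq2 called 1 (SPRY1; 6.2%). Without both replicate 3 libraries limma called 1 of the 10, SPRY1, both without the block (2.74% of all genes) and with it (7.14%). The 4 siG9a values overlapped the 4 control values for all 10 genes, and the groups did not overlap for 7.32% of all genes. A direction shared by 4 of 4 pairs was found for 3 of the 10 genes and for 30.2% of all genes (14.9% higher and 15.3% lower). The median log2 change was -0.02 over the 10 genes and 0.01 over all genes tested. All 10 passed the filter of a mean of at least 1 CPM. In the fits without the block, none of the 10 was called except SPRY1, by DESeq2 and by limma when both replicate 3 libraries or that of the control were left out.

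**Figure D1:**
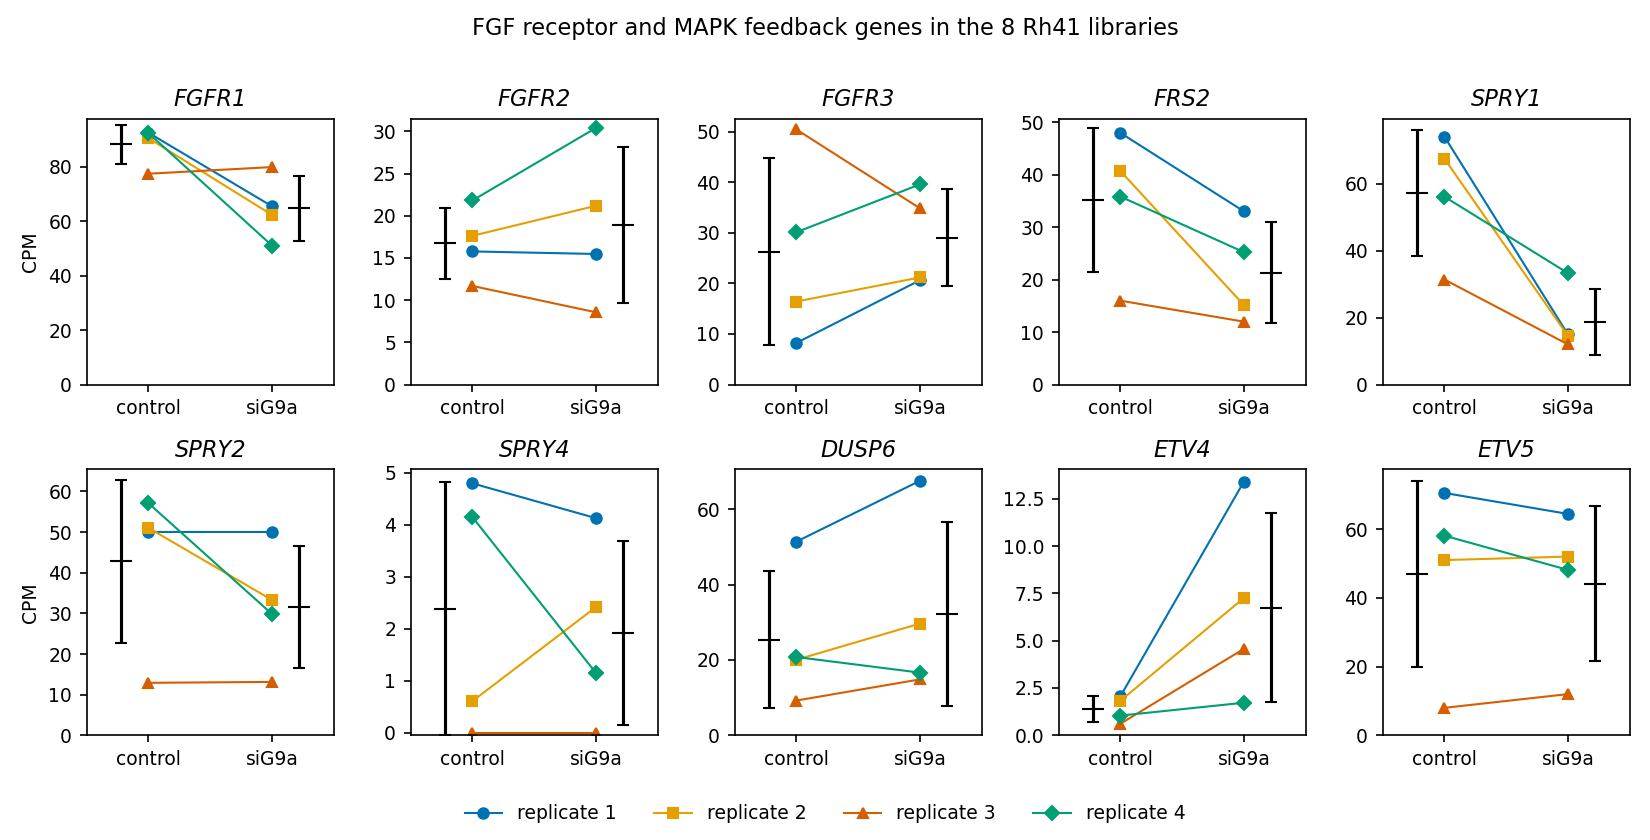
Level of each of the 10 genes in CPM (vertical axis, linear) in control and siG9a libraries (horizontal axis), with lines joining libraries of the same replicate number and black marks for the mean ± SD of 4 libraries. SPRY1 and FRS2 fall along all 4 lines and ETV4 climbs along all 4. The replicate 3 libraries are the lowest in both groups for FGFR2, FRS2, SPRY1, SPRY2, SPRY4, DUSP6 and ETV5.

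Among the receptors, FGFR1 had the highest level of the set. FGFR1 measured 92.5, 90.5, 77.5 and 92.4 CPM in control libraries 1 to 4 and 65.5, 62.3, 79.9 and 51.0 CPM in siG9a libraries 1 to 4. The groups overlapped only through replicate 3, where the siG9a library was above its control and the control library was the lowest of its group. The group means were 88.2 ± 7.23 CPM and 64.7 ± 11.9 CPM (SD, n = 4), and siG9a held 70.8%, 68.9%, 103.2% and 55.2% of control in pairs 1 to 4. The log2 change was -0.46 (SE 0.21, 95% interval -0.90 to -0.01), with an adjusted p of 0.393 without the block and 0.0930 with it (limma). The two-sided p of an exact permutation test over the 8 libraries was 0.0571, and no p below 0.0286 is possible with 4 libraries a group. Without both replicate 3 libraries the log2 change was -0.62, with an adjusted p of 0.0668 in the fit with the block (limma). FGFR1 was therefore lower in 3 of 4 pairs, in no fit past the threshold. Antisense to FGFR1, LETM2 did not exceed 6.66 CPM in any library.

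FGFR2 measured 15.8, 17.6, 11.7 and 21.8 CPM in control and 15.5, 21.2, 8.56 and 30.4 CPM in siG9a, in the order of the replicate numbers. It was higher in 2 pairs and lower in 2, and the highest and lowest library of each group carried the same numbers, 4 and 3. This gave a log2 change of 0.07 (SE 0.38, 95% interval -0.74 to 0.88), with an adjusted p of 0.963 (limma). FGFR3, best known from cartilage growth, measured 8.23, 16.4, 50.4 and 30.1 CPM in control and 20.6, 21.2, 34.8 and 39.6 CPM in siG9a. Unlike the other members, FGFR3 was at its highest in control replicate 3, and siG9a was above control in pairs 1, 2 and 4. Its log2 change was 0.36 (SE 0.46, adjusted p = 0.813, limma), and 0.65 without replicate 3 (adjusted p = 0.439). The 95% interval of FGFR3 was -0.65 to 1.37. With the block the intervals were -0.47 to 0.61 for FGFR2 (adjusted p = 0.903, limma) and -0.16 to 0.88 for FGFR3 (adjusted p = 0.406), and both include 0.

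FRS2, the adaptor that couples FGF receptors to RAS, measured 48.0, 40.7, 16.0 and 35.8 CPM in control and 33.0, 15.1, 12.0 and 25.2 CPM in siG9a. Every siG9a library was below the control of its own number, at 68.8%, 37.2%, 75.0% and 70.4% of it, yet the groups overlapped because control replicate 3 was as low as the siG9a libraries. The means were 35.1 ± 13.7 CPM and 21.3 ± 9.61 CPM (SD, n = 4). The log2 change was -0.69, with SE 0.39 and an adjusted p of 0.508 without the block, and SE 0.23 and an adjusted p of 0.0536 with it (limma). With edgeR on recovered reads and the block, the adjusted p was 0.0432. With DESeq2 and the block, the adjusted p was 0.150. FRS2 was called in 1 of 7 settings with the block, that of edgeR, and in 0 of 21 without it. Leaving out pair 2, in which the difference was widest, gave a log2 change of -0.47 and an adjusted p of 0.366 with the block (limma).

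SPRY1, a feedback inhibitor that ERK signalling induces, had the lowest log2 change of the 10 genes. SPRY1 measured 74.0, 67.5, 31.4 and 56.1 CPM in control libraries 1 to 4, from 108, 111, 51 and 108 reads. In siG9a libraries 1 to 4 it measured 15.0, 14.5, 12.0 and 33.3 CPM, from 29, 24, 21 and 58 reads. All 4 siG9a libraries were below 3 of the 4 controls, and the single overlap was between siG9a replicate 4 and control replicate 3. The group means were 57.2 ± 18.8 CPM and 18.7 ± 9.80 CPM (SD, n = 4), and siG9a held 20.2%, 21.5%, 38.2% and 59.3% of control in pairs 1 to 4. The log2 change was -1.61 (SE 0.36, 95% interval -2.38 to -0.83, adjusted p = 0.117, limma without the block). With the block, SPRY1 fell by 1.61 on the log2 scale (SE 0.24, 95% interval -2.10 to -1.11, adjusted p = 8.81e-05, limma), and only 0.782% of all genes tested had a lower log2 change. The exact permutation test that ignores the pairs gave a two-sided p of 0.0571. SPRY1 was called in 7 of 7 settings with the block and in 3 of 21 without it. Without both replicate 3 libraries, limma gave SPRY1 an adjusted p of 0.00796, or 0.000912 in the fit with the block. Leaving out each pair in turn kept the call in 4 of 4 fits with the block, with log2 changes from -1.90 to -1.40 and adjusted p from 0.000132 to 0.00553 (limma).

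EHMT2 in siG9a was at 34.0%, 51.6%, 37.9% and 66.3% of control in pairs 1 to 4, where SPRY1 was at 20.2%, 21.5%, 38.2% and 59.3%. Both were closest to control in pair 4, while pairs 2 and 3 came in opposite order for the 2 genes. FGFR1 and SPRY2 were instead at their lowest in pair 4, at 55.2% and 52.2% of control. With 4 pairs no correlation was computed, and a link between EHMT2 and these genes was not tested. The summed level of the muscle markers ran from 295 to 1882 CPM in control and from 243 to 1353 CPM in siG9a, and 5 of the 8 (DES, CHRNA1, TFAP2B, FGFR4 and CDH15) were lower in 4 of 4 pairs, where 15.3% of all genes tested were. MYOD1 was higher in pair 3 and MYOG in pair 4. The part of these markers in the SPRY1 result was not tested.

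Promoter sequence is shown for SPRY1 because its call recurred in each fit with the block, for SPRY2 as a relative that was not called, and for FRS2 as the adaptor that was lower in every pair. RefSeq promoter windows of GRCh38.p14 were found for 7 of the 10 genes, not for FGFR1, ETV4 or ETV5. The bases printed are those upstream of the start that lie in no GENCODE exon: chr4:123396545-123396794, plus strand, for SPRY1, chr13:80341127-80341376, minus strand, for SPRY2, and chr12:69470138-69470348, plus strand, for FRS2. Capitals mark GGAA, the core bound by ETS factors such as ETV4 and ETV5, on either strand (TTCC on the strand shown).
SPRY1: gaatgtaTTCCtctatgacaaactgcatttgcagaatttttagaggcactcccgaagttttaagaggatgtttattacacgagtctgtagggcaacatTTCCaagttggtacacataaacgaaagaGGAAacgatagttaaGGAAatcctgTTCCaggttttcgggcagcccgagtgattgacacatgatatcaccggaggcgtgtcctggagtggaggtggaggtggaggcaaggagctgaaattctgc
SPRY2: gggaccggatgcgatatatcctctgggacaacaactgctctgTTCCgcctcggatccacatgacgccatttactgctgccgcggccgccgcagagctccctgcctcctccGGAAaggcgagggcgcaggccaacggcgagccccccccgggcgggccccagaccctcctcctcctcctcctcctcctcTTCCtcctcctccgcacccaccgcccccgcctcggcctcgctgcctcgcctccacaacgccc
FRS2: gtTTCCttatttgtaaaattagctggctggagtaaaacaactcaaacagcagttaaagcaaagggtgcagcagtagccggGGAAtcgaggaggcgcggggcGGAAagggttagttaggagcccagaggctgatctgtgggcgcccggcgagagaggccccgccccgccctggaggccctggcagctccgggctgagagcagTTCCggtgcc
SPRY1 held 5 GGAA matches in 250 bases, SPRY2 held 3 in 250 bases and FRS2 held 4 in 211 bases. Of 35116 RefSeq windows cut to the same 250 bases, 92.7% held at least 1 match, 18.6% held 5 or more and 55.1% held 3 or more. Cut to 211 bases, 24.0% held 4 or more. The longer CCGGAA, which contains GGAA, was found on either strand in the printed SPRY2 and FRS2 stretches, 1 match each, and not in the printed one of SPRY1. RefSeq gives SPRY1 2 windows and SPRY2 3, of which the first listed is printed. The windows of SPRY1 held 5 and 4 GGAA matches and those of SPRY2 held 3, 4 and 4. CCGGAA is in 1 window of each gene, so neither GGAA nor CCGGAA sets SPRY1 apart from SPRY2. CCGGAA occurs in 14.5% of windows of 250 bases and 11.1% of windows of 211 bases. A match describes the letters only, and no binding was measured.

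SPRY2 and SPRY4, the other Sprouty genes, did not pass the test. SPRY2 measured 50.0, 51.0, 12.9 and 57.1 CPM in control and 50.0, 33.3, 13.1 and 29.8 CPM in siG9a. Pairs 1 and 3 were level, with siG9a at 100.0% and 101.7% of control, and pairs 2 and 4 were at 65.2% and 52.2%. For SPRY2 the log2 change was -0.37 (SE 0.48, adjusted p = 0.813, limma), and with the block the adjusted p was 0.294 and the 95% interval -0.82 to 0.07. Without control replicate 3 the log2 change was -0.86, and without siG9a replicate 3 it was -0.019, so its size rests on these libraries. SPRY4 was near the floor, with 7, 1, 0 and 8 reads in control and 8, 4, 0 and 2 reads in siG9a. For the values of 0 reads, the 95% counting interval of SPRY4 reached 2.36 CPM in control replicate 3 and 2.19 CPM in siG9a replicate 3. Its log2 change was -0.09 (SE 0.67, 95% interval -1.54 to 1.36, adjusted p = 0.972, limma), so no difference was detectable at this depth. Whether SPRY1 differed in its response from SPRY2 or SPRY4 was not tested.

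DUSP6, the phosphatase that inactivates ERK, differed more between replicate numbers than between groups. DUSP6 measured 51.4, 20.1, 9.22 and 20.8 CPM in control and 67.6, 29.7, 14.8 and 16.6 CPM in siG9a. Replicate 1 was the highest and replicate 3 the lowest in both groups, and siG9a was above control in pairs 1, 2 and 3, at 131.4%, 147.9% and 161.0% of it, and below in pair 4, at 80.1%. DUSP6 had a log2 change of 0.31 (SE 0.53 and adjusted p = 0.868 without the block, SE 0.24 and adjusted p = 0.437 with it, limma). SPRY1 and DUSP6, both transcripts that ERK induces, had log2 changes of opposite sign, SPRY1 was called and DUSP6 was not, and the difference between them was not tested.

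ETV4 and ETV5 encode ETS transcription factors of the PEA3 family that act downstream of FGF signalling. ETV4 was barely detected in control, with 3, 3, 1 and 2 reads (2.06, 1.82, 0.61 and 1.04 CPM), all at or under the floor. In siG9a it had 26, 12, 8 and 3 reads (13.4, 7.26, 4.57 and 1.72 CPM), above the floor in libraries 1 to 3. Each siG9a library was above the control of its number, and the overlap came from siG9a replicate 4. Summed over the group, 9 reads of 6656655 stood against 49 of 7086051, a ratio of 5.11 with a counting interval of 2.49 to 11.8 that holds no spread between replicates. The log2 change was 1.50 (SE 0.52, 95% interval 0.37 to 2.62, adjusted p = 0.273, limma), and with the block ETV4 rose (SE 0.43, adjusted p = 0.0227). With the block, edgeR gave a log2 change of 2.11 and an adjusted p of 0.0186, and DESeq2 gave 2.11 and 0.0967. The size depends on the treatment of low values: it was 1.99 with a pseudocount of 0.1 CPM, 0.79 with one of 5 CPM and 2.26 with edgeR without the block. The call with the block was lost without pair 1, 2 or 3 (adjusted p = 0.152, 0.104 and 0.0905, limma) and kept without pair 4 (0.0150). The exact permutation test gave a two-sided p of 0.0857. ETV4 overlaps DHX8 on the opposite strand, and whether the authors' counting used strand is not given in the sources used here. DHX8 averaged 28.8 ± 5.88 CPM in the controls against 34.7 ± 4.19 CPM in siG9a (SD, n = 4). Its part in the ETV4 values was not tested.

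ETV5 did not pass the test and differed widely between replicate numbers. ETV5 measured 70.6, 51.0, 7.99 and 58.2 CPM in control and 64.5, 52.0, 12.0 and 48.2 CPM in siG9a. The replicate 3 libraries were far below the other 6, and siG9a was at 91.3%, 102.0%, 150.1% and 82.8% of control in pairs 1 to 4. ETV5 had a log2 change of 0.04 (SE 0.64, adjusted p = 0.988, limma), and with the block the 95% interval narrowed to between -0.38 and 0.46 (adjusted p = 0.928). Its sign changed in 10 of 28 alternative settings, including -0.12 without replicate 3, so no direction can be given.

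**Figure D2:**
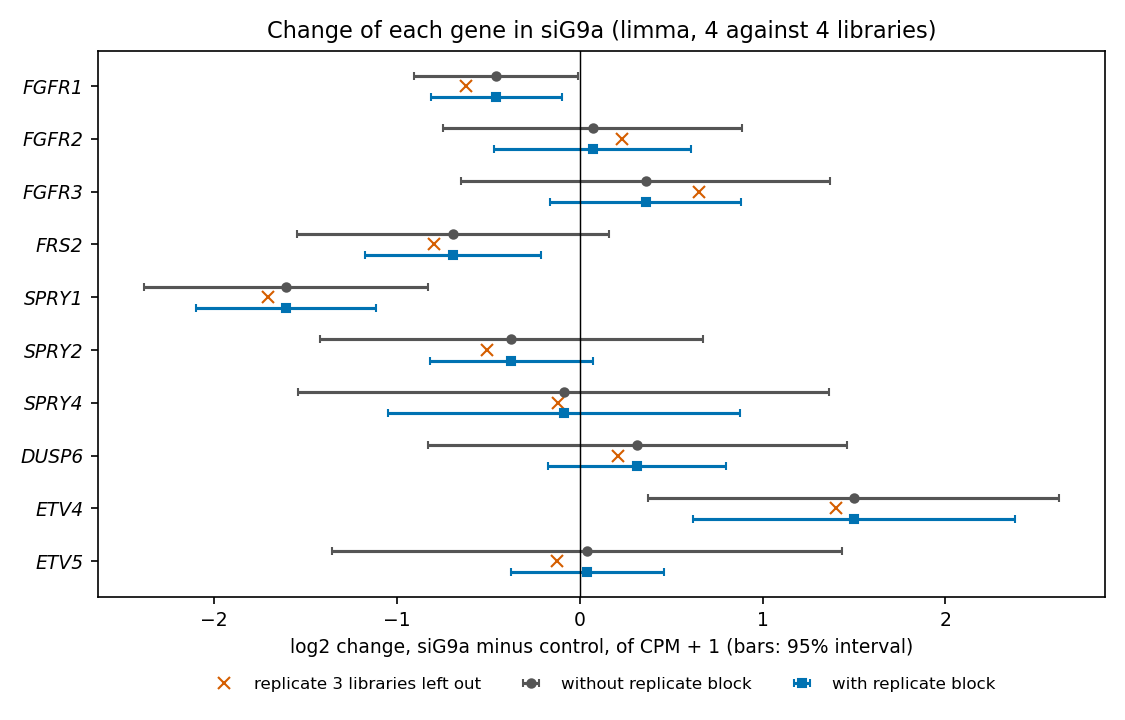
Log2 change (siG9a minus control, on log2(CPM + 1), horizontal axis) for each gene, with 95% intervals from limma without (grey circles) and with (blue squares) the replicate number as a block, and crosses for the change without both replicate 3 libraries. The interval with the block lies below 0 for FGFR1, FRS2 and SPRY1 and above 0 for ETV4, before adjustment over all genes.

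The variation of the 10 genes over the 8 libraries was split into the part that follows the group, the part that follows the replicate number and the remainder, as shares of the sum of squares of log2(CPM + 1). The group took 71.6% for SPRY1, 62.4% for FGFR1, 55.4% for ETV4 and 27.1% for FRS2. It took at most 6.0% for each of the other 6 genes. For ETV5, 98.0% followed the replicate number, for DUSP6 91.9%, for FGFR2 88.7% and for SPRY2 87.9%. The median share of the replicate number was 79.2% over the 10 genes and 54.6% over all genes tested, and that of the group 5.80% and 12.5%. The replicate 3 libraries were the lowest of their own group, in both groups, for 7 of the 10 genes (FGFR2, FRS2, SPRY1, SPRY2, SPRY4, DUSP6 and ETV5) and for 19.8% of all genes tested. The labels do not say what a replicate number stands for, and what sets replicate 3 apart was not tested.

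**Figure D3:**
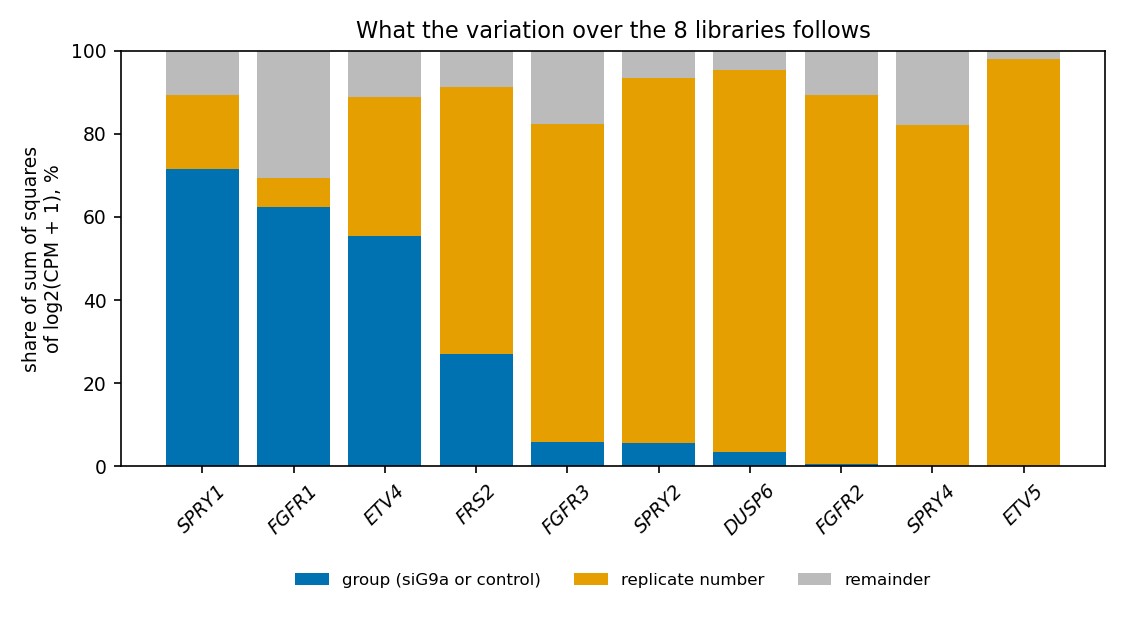
Share of the sum of squares of log2(CPM + 1) over the 8 libraries (vertical axis, %) that follows the group, the replicate number or neither, for each gene, ordered by the group's share. SPRY1, FGFR1 and ETV4 have more than 50% in the group, while FGFR2, FGFR3, SPRY2, SPRY4, DUSP6 and ETV5 have more than 75% in the replicate number.

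In control, the order of the mean levels in CPM was FGFR1 (88.2), SPRY1 (57.2), ETV5 (46.9), SPRY2 (42.8), FRS2 (35.1), FGFR3 (26.3), DUSP6 (25.4), FGFR2 (16.7), SPRY4 (2.39) and ETV4 (1.38). Neighbours in this order overlapped in their ranges over the 4 control libraries, except FGFR1 with SPRY1 and FGFR2 with SPRY4. In siG9a the mean of SPRY1 (18.7 CPM) was below those of ETV5 (44.2), DUSP6 (32.2), SPRY2 (31.6), FGFR3 (29.1), FRS2 (21.3) and FGFR2 (18.9), and that of ETV4 (6.74) was above SPRY4 (1.93). The levels are per tag at the 3′ end and need no scaling by length.

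The genes most like FGFR1 over the 8 libraries, by Pearson's r of log2(CPM + 1) among 8890 genes that averaged 10 CPM or more, were NUP62 (r = 0.93), SNHG9 (0.93) and RNF44 (0.93). Without the replicate 3 libraries, their r over 6 libraries was 0.94, 0.93 and 0.96. For ETV5 they were SMARCD3 (r = 0.995), MYT1L (0.99) and TFE3 (0.99), which fell to 0.83, 0.67 and 0.83 over the 6 libraries without replicate 3. These values are a description of shared libraries, and those of ETV5 rest in part on the low replicate 3 libraries.

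The other genes of the pathway were read from 6 lists of 96 genes. Of the 75 tested, limma called 0 without the block (0.0% of all genes) and 18 with it, 5 higher and 13 lower, beside 11.4% of all genes. At an unadjusted p under 0.05, 19 passed without the block, where 12.5% of all genes did. Without the block, edgeR called 0 (0.0% of all genes) and DESeq2 called 2 (1.93% of all genes). For 75 genes, 2 calls are close to that background. Without replicate 3, 14 were called with the block, where 7.14% of all genes were. In the fits with the block that each left out 1 pair, 7 of the 18 were called in 4 of 4, among them GPC1, SDC4, NRAS, YWHAE, IER2 and SRF. The share of all genes called in 4 of 4 was not computed, so the count of 7 has no background beside it.

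Upstream of the receptors, few FGF ligand genes were detected. Of 18, 8 were at 0 in every library and 4 were tested, with a median log2 change of -0.61. With the block 1 of the 4 was called, lower, where 11.4% of all genes were called and 6.52% called lower. This was FGF7, the keratinocyte growth factor, at 14.8 ± 7.29 CPM in the controls against 4.23 ± 2.68 CPM in siG9a (SD, n = 4). In siG9a libraries 1 to 4, FGF7 measured 3.09, 1.82, 4.0 and 8.03 CPM, at the floor in library 2. FGF7 in pair 3 was at 81.3% of control. Its log2 change was -1.56, with an adjusted p of 0.237 without the block and 0.00847 with it (limma), and the latter call was lost without pair 1 or pair 2 (0.0798 and 0.0967). FGF9, the most abundant ligand, averaged 17.6 ± 1.19 CPM and 12.8 ± 4.55 CPM (SD, n = 4) and was not called (adjusted p = 0.275 with the block), nor was FGF2 (0.312).

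Of the other receptors and heparan sulfate co-receptors, 6 of 10 tested were called with the block, 5 lower and 1 higher. Of all genes tested, 11.4% were called (6.52% lower and 4.86% higher). Without replicate 3, 4 of 10 were called with the block, where 7.14% of all genes were. The median log2 change of the 10 was -0.63. GPC1, a glypican, averaged 87.2 ± 39.7 CPM in the controls against 38.0 ± 14.8 CPM in siG9a (SD, n = 4), lower in 4 of 4 pairs, with a log2 change of -1.10 (adjusted p = 0.355 without the block and 0.000352 with it, limma). GPC4 (log2 change -1.28, adjusted p = 0.0123 with the block, limma) was lower without overlap of the groups, and its call was lost without pair 4 (0.104). The syndecans did not share a direction. SDC4 rose from 15.7 ± 5.99 CPM to 36.2 ± 12.3 CPM (SD, n = 4; log2 change 1.17, adjusted p = 0.00146 with the block, limma). SDC2 had a log2 change of -1.03 (adjusted p = 0.00269 with the block, and 0.0716 without pair 2), and SDC1 one of -0.72 (adjusted p = 0.0170 with the block, and 0.128, 0.113 and 0.160 without pair 1, 2 or 3). FGFR4, the FGF receptor that PAX3-FOXO1 is known to induce, averaged 90.9 ± 43.4 CPM in the controls against 58.9 ± 28.2 CPM in siG9a (SD, n = 4). FGFR4 was lower in 4 of 4 pairs, with a log2 change of -0.59 (adjusted p = 0.694 without the block and 0.0229 with it, limma). Its call was lost in each fit that left out 1 pair, with adjusted p from 0.0512 to 0.162. In control its mean level was close to that of FGFR1 and above those of FGFR2 and FGFR3.

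Below the receptors, 2 of 15 adaptor and RAS genes tested were called with the block, 1 higher and 1 lower. This is close to the share of all genes tested, 11.4%. NRAS, a RAS GTPase, was higher in 4 of 4 pairs, at 25.7 ± 10.4 CPM in the controls against 51.3 ± 19.2 CPM in siG9a (SD, n = 4; log2 change 0.96, adjusted p = 0.00452 with the block, limma). The adaptor GRB2 (adjusted p = 0.764 with the block), the RAS inhibitor NF1 (0.613) and the ubiquitin ligase CBL (0.195) were not called. Of 15 genes for RAF, MEK and ERK kinases and their scaffolds, 2 were called with the block, both lower. Of all genes tested, 11.4% were called and 6.52% called lower, so 2 calls are close to that background. YWHAE, a 14-3-3 protein that binds RAF, had a log2 change of -1.24 (adjusted p = 0.000136 with the block, limma). MAP2K2, which encodes MEK, had one of -0.76 (0.00654, and 0.0965 and 0.0867 without pair 1 or 2). YWHAB, a relative of YWHAE in the 14-3-3 family and the most abundant gene of the list, was not called (0.215).

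Among the other feedback inhibitors, 3 of 14 tested were called with the block, all lower. Of all genes tested, 11.4% were called and 6.52% called lower. Without replicate 3, 0 of the 14 were called, where 7.14% of all genes were (limma with the block, adjusted p from 0.0727 to 0.111 for the 3). SPRED1, a relative of the Sprouty proteins, averaged 56.6 ± 23.7 CPM in the controls against 33.1 ± 13.5 CPM in siG9a (SD, n = 4; log2 change -0.78, adjusted p = 0.0126 with the block). The phosphatases DUSP3 (log2 change -0.60, adjusted p = 0.0173) and DUSP4 (-0.79, 0.0467) were lower in 4 of 4 pairs. These calls were also lost without pair 1 or 2 for SPRED1, without pair 2 or 4 for DUSP3 and without any 1 pair for DUSP4. ERRFI1, an inhibitor of the EGF receptor, was not called (0.676). The median log2 change of the list was -0.11.

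Of the list of other transcripts taken to follow ERK activity, 4 of 17 tested were called with the block, 3 higher and 1 lower. Of all genes tested, 11.4% were called (4.86% higher and 6.52% lower). Without replicate 3, 5 of 17 were called with the block, where 7.14% of all genes were. IER2, an immediate early gene, measured 44.1 to 89.2 CPM in control and 119.3 to 161.0 CPM in siG9a, with no overlap (log2 change 1.13, adjusted p = 0.109 without the block and 6.37e-05 with it, limma). SRF, the serum response factor, had a log2 change of 1.01 (adjusted p = 0.00369 with the block). Its ETS partner ELK1 had one of 1.12, with no overlap of the groups (0.00745, and 0.0607 and 0.0520 without pair 2 or 4). CCND1, which encodes cyclin D1, was lower, at 156.4 ± 45.8 CPM in the controls against 83.4 ± 61.2 CPM in siG9a (SD, n = 4; log2 change -1.20, adjusted p = 0.00449 with the block, and 0.0615 without pair 1). DESeq2 with the block gave CCND1 an adjusted p of 0.268. IER3 (adjusted p = 0.0896 with the block, and 0.0382 without replicate 3) and HMGA2 (0.126) were not called. The median log2 change of the list was 0.40. SPRY1, lower, and ETV4, higher, thus stood among transcripts of the pathway that were called in both directions.

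**Figure D4:**
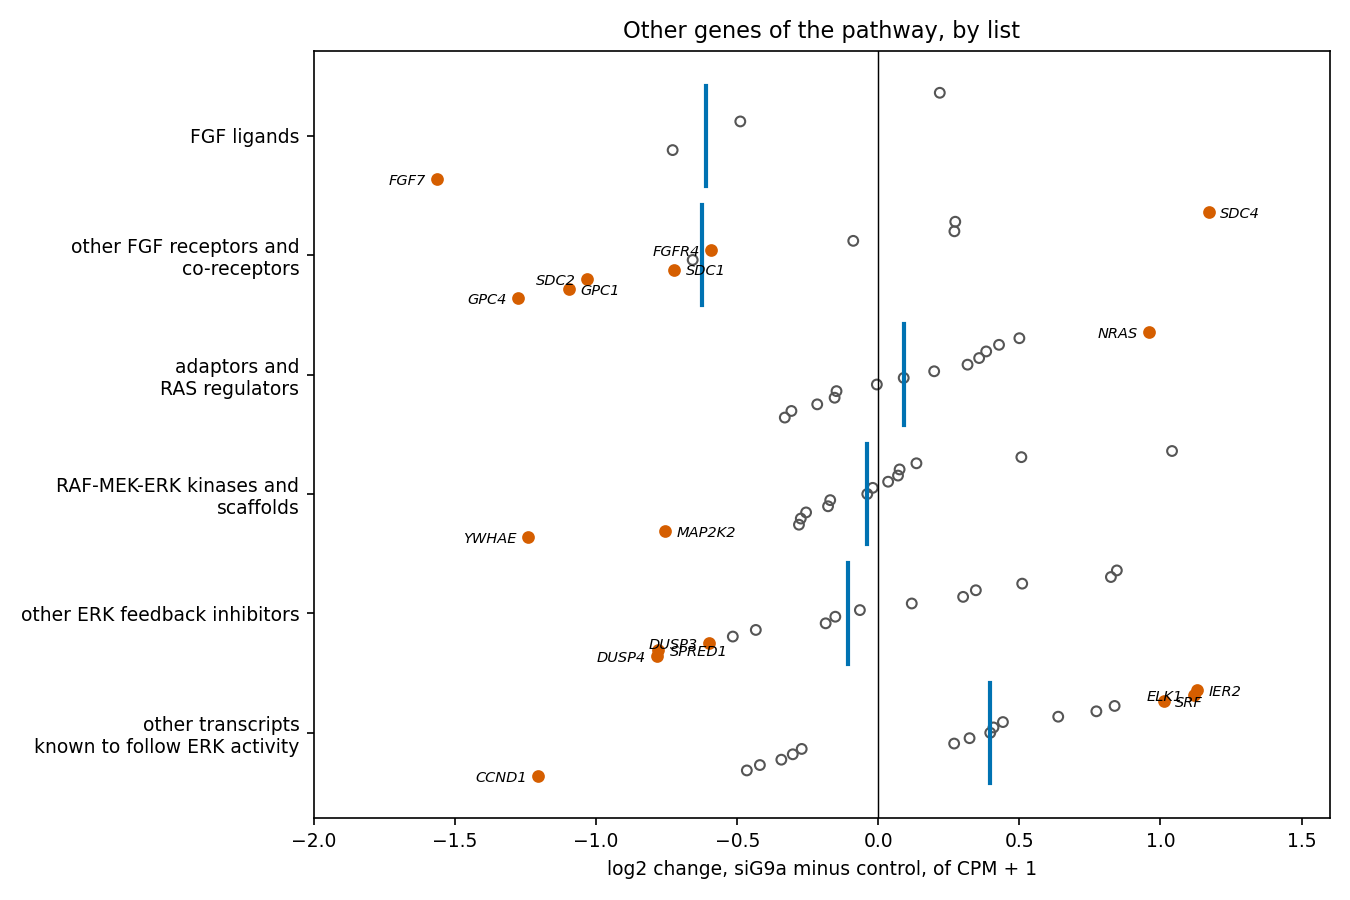
Log2 change (siG9a minus control, on log2(CPM + 1), horizontal axis) of 74 of the 75 tested genes of the 6 pathway lists (vertical axis; within a list, genes are spread in order of their change), with filled orange points for the 17 of them called by limma with the replicate block, open points for the others and a blue bar at the list's median. Called genes lie on both sides of 0, with 12 lower and 5 higher among those drawn.

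Reads from a gene and an overlapping antisense partner cannot be told apart where counting ignores strand, which is not given in the sources used here. In GENCODE release 29, EHMT2, FGFR1, SPRY4, DUSP6, ETV4, ETV5, FGF7, FGF2 and GPC1 overlap such a partner. So do GRB2, NF1, CBL, YWHAE, ERRFI1, IER2, CCND1, HMGA2 and IER3, while SPRY1, SPRY2, FRS2, FGFR2 and FGFR3 do not. The symbol EHMT2 had 7 identifiers and IER3 had 6, and the identifier with the highest mean CPM was used. YWHAE also has processed pseudogenes, and how shared reads were assigned is not given.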

How the data were processed

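The deposited table gives CPM to 2 decimals for 60234 genes in 8 libraries. Per the submitters' processing notes the tools include FastQC 0.11.8, Trim Galore, STAR 2.5.0a, HTSeq 0.8.0 and edgeR 3.28, and the builds GRCh38 and hg19 are both named, so the build behind the values is not known and gene positions come from GENCODE release 29 (GRCh38). Per the labels' protocols, 100 ng of total RNA per sample was sequenced in single-end reads of 75 bases. The deposited CPM were made by the authors from counts scaled to each library's total. In each library 100.0% of values were whole multiples of 1 read within 0.0051 CPM, so reads were recovered. Libraries held 1664164 ± 193604 reads in control and 1771513 ± 120207 in siG9a (SD, n = 4). Intervals and floors cover counting error only.

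Groups were compared on log2(CPM + 1) with limma 3.58.1 under R 4.3.3 (two-sided, eBayes with trend) over the 15092 genes that averaged 1 CPM or more, with Benjamini-Hochberg adjustment over all of them and a threshold of 0.05. The pseudocount of 1 CPM understates changes of low genes. Groups come from the sample titles. The replicate numbers in the titles were added as a block in a second fit. Deviations from the group mean correlated between same-numbered libraries at 0.50, 0.10, 0.67 and 0.13 for numbers 1 to 4, across genes, so the numbers were taken to pair the libraries, although control 2 correlated more with siG9a 4 (0.14). Pair means libraries of 1 number. Alternatives included edgeR 4.0.16 and DESeq2 1.42.0 on recovered reads. The scripts were tested on simulated data. The 10 genes, the pathway lists and the marker lists were chosen with earlier results of these data known. Named were all 10 genes, EHMT2, in each list at most 5 called genes with the smallest p and the 3 of highest mean CPM, and the 3 genes most correlated with each of the 2 members of highest mean CPM. Of the genes this rule takes, 1 is not reported here.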

Additional observations from a re-analysis of the deposited data

Results flagged for a closer look

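In 20 groups of 4 libraries (10 genes in 2 groups), 3 held a value set far from the other libraries of its group by Dixon's ratio, where chance gives about 1. FGFR1 in control replicate 3 was 77.5 CPM, against 90.5 to 92.5 CPM in the other controls. SPRY1 in siG9a replicate 4 was 33.3 CPM, against 12.0 to 15.0 CPM in the other siG9a libraries. SPRY2 in control replicate 3 was 12.9 CPM, against 50.0 to 57.1 CPM in the other controls. Of the 3, 2 lie in control replicate 3.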

How the results depend on the processing

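The replicate block decided most calls. Over all genes tested, limma called 0 without it and 1717 with it, and 951, 668, 1078 and 1393 with the block and without replicate 1, 2, 3 or 4. No filter on low values gave 18 calls without the block, and leaving out 1 library or 1 number without the block gave 0 to 413 (300 without control replicate 3, 413 without replicate 3). On recovered reads, edgeR with the block called 1711, DESeq2 292 and DESeq2 with the block 936. Of the 10 genes, 2 were called with the replicate block, 1, 1, 1 and 2 with it and without replicate 1, 2, 3 or 4, 3 by edgeR with the block, 1 by DESeq2 without and 1 with the block, and 0 to 1 when libraries were left out without the block. Of the pathway genes, 18 were called with the replicate block, 11, 9, 14 and 14 with it and without replicate 1, 2, 3 or 4, 18 by edgeR with the block, 2 by DESeq2 and 15 by DESeq2 with the block, and 0 to 5 when libraries were left out without the block. The sign of ETV5 turned with edgeR (-0.088, and -0.037 with the block), DESeq2 (-0.10, and -0.025 with the block), the block without replicate 3 (-0.12) and left-out libraries (-0.65 to 0.56). With the block and without replicate 4, FGFR2 was -0.060 and SPRY4 0.30. With libraries left out, SPRY2 ran from -0.86 to -0.019, FGFR2 from -0.19 to 0.38, FGFR3 from -0.069 to 0.76, SPRY4 from -0.55 to 0.35 and DUSP6 from -0.12 to 0.73. The cause of these reversals was not tested. SPRY1, FRS2, FGFR1, SPRY2 and ETV4 kept their sign in each setting that gave them a value. ETV4 and SPRY4 gave none at a mean of at least 5 CPM, and DESeq2 gave ETV4 or SPRY4 no adjusted p in part. Depth limits SPRY4 and the control level of ETV4, which rest on 0 to 8 reads per library.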
